A study of Bos taurus with 12 samples.

Results

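The protein subunits of RNase P and RNase MRP were examined in the liver of newborn Holstein heifer calves. The 10 genes, RPP14, RPP21, RPP25, RPP30, RPP38, RPP40, POP1, POP4, POP5 and POP7, were taken by symbol from the bovine gene table. All 10 were among the 30336 genes counted, and all 10 passed the filter on low counts that left 13212 genes to be tested. Liver was sampled by puncture biopsy at 4 d of age. CON calves were born to Holstein cows given a basal close-up diet without added methionine, and MET calves to cows given that diet with ethyl-cellulose rumen-protected methionine, in both cases over the last 28 d of gestation. The labels give 6 heifer calves per diet, all drawn from a larger cohort, and milk replacer and housing followed 1 scheme after birth. Each calf was offered the same amount of colostrum from its own dam, so that colostrum source and prenatal diet cannot be told apart. The question was whether the diet of the dam went with a difference in these transcripts in the calf.

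RNase P and RNase MRP are related enzymes built from one RNA molecule and a set of proteins, most of which are used by both. RNase P removes the leader at the 5′ end of precursor tRNAs, while RNase MRP cuts the precursor of ribosomal RNA in its first internal spacer and takes part in the turnover of a few mRNAs. The RNA does the catalysis, and the proteins shape it, hold the substrate and direct the enzyme to the nucleolus. In a tissue that secretes as much protein as the liver does, both enzymes stand at the start of the supply of tRNAs and ribosomes.

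The libraries held 8277789 to 10397604 counted reads. A pair of CON libraries, replicates 1 and 4, agreed nearly within sampling noise, with a chi-square of 1.33 per gene, and so did MET replicates 1 and 3, with 1.24, while the other 64 pairs of libraries gave 25.19 to 133. The labels name different calves for the libraries of a pair, and whether each pair came from 2 calves or 1 cannot be told from the files. Each pair was therefore counted as 1 sample, which left 5 per diet for means and SD, and tests are given over the 12 libraries and again over these 10 samples. All 6 hepatocyte markers were read in every library, and none of the marker genes of 7 cell types was at 0 throughout. The summed level of the hepatocyte list ranged from 132550 to 179223 CPM (reads scaled to a common library total) in CON and from 108795 to 142250 in MET, with 0 of 6 genes at an FDR of 0.10 or less. That of the 6 Kupffer cell genes ranged from 965 to 1378 CPM in CON and from 1127 to 1536 in MET, and all 6 had a positive fold change, 1 of them at that FDR. The 4 genes of dividing cells ranged in sum from 17.4 to 70.7 CPM in CON and from 8.98 to 23.3 in MET, with 0 of 4 higher and 2 called, where 4.41% of all genes were called. The 4 stellate cell and fibroblast genes ranged from 541 to 809 CPM in CON and from 402 to 668 in MET, with 0 of 4 higher and 0 called. Summed levels of the erythroid (7.58 to 961 and 57.1 to 460 CPM), bile duct (41.5 to 68.1 and 23.7 to 61.6) and endothelial lists (165 to 309 and 146 to 270) overlapped between CON and MET, with 0 genes called. The part of these markers in the subunit results was not tested, and in bulk tissue fewer cells of a type and less RNA per cell cannot be told apart. Each diet also had its own first sequencing index, so that the effects of index and diet cannot be told apart either.

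RPP21 and POP1 transcripts were higher in MET, RPP21 by 2.09-fold and POP1 by 1.46-fold over the 12 libraries. POP5 and POP4 had positive differences that missed the FDR threshold, and over the 10 samples POP5 was at a log2 fold change of 0.49 and POP1 at 0.48, neither called. The remaining 6 subunits had intervals that included 0. In all, 9 of the 10 had a positive log2 fold change, beside 49.6% of all genes tested, and the median of the 10 was 0.33 against -0.003 over all genes. At an FDR of 0.10 or less, 2 of the 10 were called (RPP21 and POP1), both higher in MET, where 4.41% of all genes were called in either direction and 2.09% were higher. At an unadjusted p of at most 0.05, 4 were higher in MET (RPP21, POP1, POP4 and POP5), with 10.2% of all genes so called. Over the 10 samples these same 4 genes passed that level, beside 7.86% of all genes. None of the 10 reached an FDR of 0.10 there with edgeR's quasi-likelihood test, as did 0% of all genes, with limma voom also at 0. DESeq2 over the 10 samples called 1 of the 10, RPP21, and 4.72% of all genes. The diets did not overlap over the 10 samples for RPP21, POP1 and POP5, 3 of 10, against 1.94% of all genes for which every MET sample was above every CON sample. RPP21 and POP1 are in the study's own list of differentially expressed genes, which was chosen on these same libraries, so their separation is a description and not independent evidence.

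**Figure D1:**
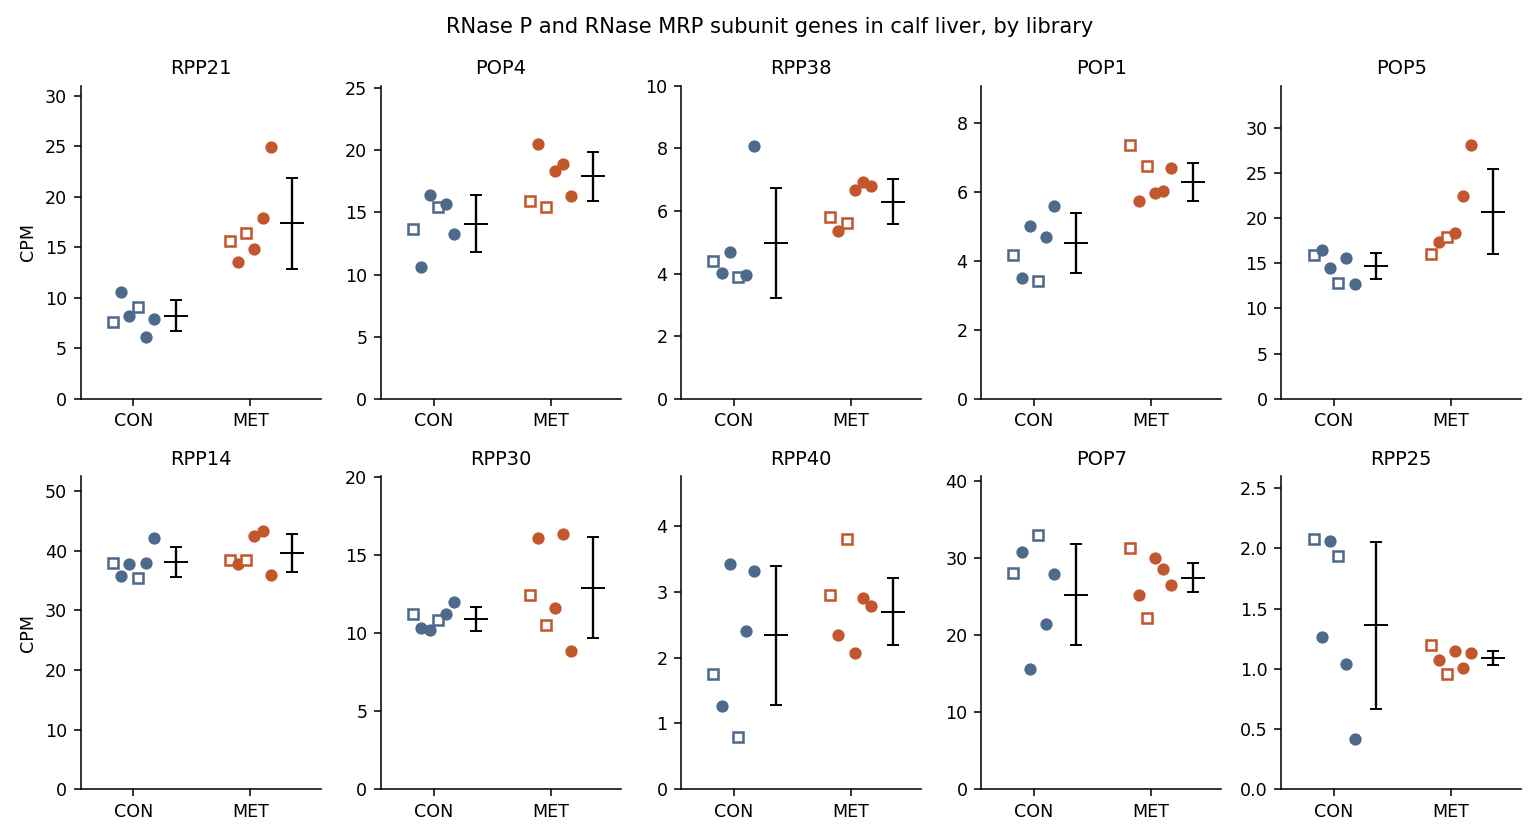
Level of each subunit gene in every library, in CPM on linear axes that start at 0. Each point is 1 library, open squares are the libraries of the near-identical pairs (CON 1 and 4, MET 1 and 3), and the black marks are the mean and SD over 5 samples per diet; only RPP21 and POP1 keep all 6 MET libraries above all 6 CON libraries.

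Set per kilobase of exon (RPKM) and averaged over the 10 samples, the subunits spanned a 68.1-fold range of levels. POP7 had the highest mean, 23.8 ± 4.27 RPKM (SD, n = 10), followed by POP5 at 21.2 ± 5.44, and POP7 was the higher of the pair in 7 of 10 samples. RPP21 (10.1 ± 4.56), POP4 (8.69 ± 1.55) and RPP30 (8.48 ± 1.74) were not separated beyond their spread, with RPP21 above POP4 in 5 of 10 samples and POP4 above RPP30 in 6. Their order differed by diet, since RPP21 had the lowest mean of these genes in CON (6.48 RPKM, with POP4 at 7.65 and RPP30 at 7.78) and the highest in MET (13.7, with POP4 at 9.73 and RPP30 at 9.17). RPP14 at 5.54 ± 0.396 and RPP38 at 3.18 ± 0.817 came next, each below its upper neighbour in 10 of 10 samples. RPP40 (1.74 ± 0.558) and POP1 (1.63 ± 0.350) overlapped, each being the higher in 5 of 10 samples. RPP25 stood last with 0.350 ± 0.139 RPKM and was below POP1 in 10 of 10. The order is a description, since no test was made between genes.

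RPP21, POP4 and RPP38 are neighbours in the assembled RNase P. RPP21 binds POP4 (also named RPP29), and the yeast counterpart of RPP21 is found in RNase P and not in RNase MRP, while RPP38 is a protein of the L7Ae family that binds kink turns in RNA. RPP21 lies at chr23:28257304-28260201 on the minus strand of UMD 3.1.1 (Entrez gene 104968464), with 6 exons of 1271 bases in all, none of which overlaps an exon of another gene in the files. The 5 CON samples had RPP21 at 8.34 (the mean of replicates 1 and 4), 10.6, 8.23, 6.15 and 7.89 CPM. The 5 MET samples had it at 16.0 (the mean of replicates 1 and 3), 13.5, 14.8, 17.9 and 24.9 CPM. The lowest MET sample, replicate 2, was above the highest CON sample, also replicate 2, and MET replicate 6 was well above the other MET samples. These values came from 59 to 84 reads per CON library and 129 to 242 per MET library. The means were 8.23 ± 1.57 and 17.4 ± 4.50 CPM (SD, n = 5 per diet). RPP21 had the fourth smallest p of the 13212 genes, with a log2 fold change of 1.06 (SE 0.16, 95% interval 0.71 to 1.41) and an FDR of 0.0381 by edgeR's quasi-likelihood test over the 12 libraries. Over the 10 samples it was 1.08 (SE 0.19) with an FDR of 0.155. The exact permutation p was 0.00794 over the 10 samples, the smallest that 5 against 5 can give. Leaving out MET replicate 6, the highest library, gave 0.92 with an FDR of 0.0554.

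POP4, a binder of the RNA close to its catalytic core, lies at chr18:40370513-40379995 (plus strand, 1842 exonic bases). CON samples held 14.6, 10.6, 16.4, 15.7 and 13.3 CPM, and MET samples 15.7, 20.5, 18.3, 18.9 and 16.3 CPM, in the order of the pair mean and then the remaining replicates. In 3 of 5 MET samples POP4 was above every CON sample, and the ranges overlapped between 15.7 and 16.4 CPM. The log2 fold change was 0.31 (SE 0.12, 95% interval 0.05 to 0.56) with an FDR of 0.173, which did not pass.

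RPP38, at chr13:29959782-29965683, averaged 4.98 ± 1.76 CPM in CON and 6.30 ± 0.708 in MET (SD, n = 5 per diet). One CON sample, replicate 6, held 8.09 CPM, above every MET sample, while the other 4 lay between 3.96 and 4.69 CPM. The log2 fold change of 0.35 had an interval of -0.05 to 0.76 and an FDR of 0.309. Without CON replicate 6 it was 0.56 with an FDR of 0.0807, so that 1 library set the call.

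POP1 is the largest protein of both enzymes and wraps the RNA as a scaffold for the other subunits. Its gene, at chr14:68377529-68412631 on the minus strand, has 16 exons of 3321 bases. POP1 held 3.79 CPM in the CON pair and 3.52, 5.03, 4.69 and 5.60 CPM in the other CON samples. In MET it held 7.07 CPM in the pair and 5.76, 5.99, 6.04 and 6.70 CPM in the others. The diets did not overlap, but the gap between the highest CON sample (replicate 6) and the lowest MET sample (replicate 2) was small beside the spread within each diet. The means of 4.53 ± 0.865 and 6.31 ± 0.551 CPM rested on 28 to 80 reads per library. The log2 fold change was 0.54 (SE 0.15, 95% interval 0.22 to 0.87), with an FDR of 0.0850. With the 10 samples it was 0.48 (SE 0.17) and the FDR 0.212. The call held in 1 of 12 fits that left out 1 library, that without CON replicate 6 (0.63, FDR 0.0772), and in the other 11 POP1 missed the threshold at an FDR of up to 0.158.

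POP5, RPP14, RPP30 and RPP40 form another group of contacts, in which POP5 and RPP14 share a related fold and RPP30 is a TIM-barrel protein. POP5, the shortest of the 10 at 835 exonic bases (chr17:65102634-65104915), had the largest log2 fold change of this group in the main edgeR fit over the 12 libraries. In some alternative fits that of RPP40 was larger, as with limma voom (0.50 against 0.43) and without CON replicate 6 (0.54 against 0.41). The CON samples had POP5 at 14.3, 16.5, 14.5, 15.6 and 12.7 CPM and the MET samples at 17.0, 17.4, 18.4, 22.5 and 28.1 CPM, with the pair mean first. Every MET sample was above every CON sample, although the single library of MET replicate 1 (16.0 CPM) was below CON replicate 2. Again MET replicate 6 was the highest sample. The log2 fold change was 0.45 (SE 0.14, 95% interval 0.15 to 0.75) and the FDR 0.108, just outside the threshold, with an exact permutation p of 0.00794 over the 10 samples. Over the 10 samples the quasi-likelihood test gave 0.49 (SE 0.15) with an FDR of 0.188. DESeq2 put the FDR of POP5 at 0.0617 over the 12 libraries and at 0.105 over the 10 samples, and limma voom at 0.127 and 0.214. Leaving out MET replicate 6 gave 0.33 with an FDR of 0.166.

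Over the 12 libraries, without a correction for gene length, the other 3 genes of the group had intervals that included 0. RPP14 varied least over the samples, with 38.1 ± 2.47 CPM in CON and 39.6 ± 3.15 in MET, and the interval of its log2 fold change (0.06) ran from -0.12 to 0.23. RPP14 lies at chr22:43549346-43561370 in the files. The RefSeq table, of a later assembly, gives HTD2, a dehydratase of mitochondrial fatty acid synthesis, the same start and end as RPP14, so reads counted as RPP14 may include those of HTD2. RPP30, at chr26:12531243-12559201, averaged 10.9 ± 0.747 CPM in CON and 12.9 ± 3.24 in MET, a log2 fold change of 0.21 (interval -0.11 to 0.52) with samples on both sides of the CON range. It was 0.12 without MET replicate 2 or without MET replicate 5, and 0.29 (FDR 0.269) without MET replicate 6. RPP40, at chr23:49410714-49420478, averaged 2.34 ± 1.06 and 2.70 ± 0.510 CPM from 7 to 40 reads per library, with an interval of -0.29 to 1.04.

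POP7 (also named RPP20) and RPP25 are Alba-type proteins that bind each other and together clasp the outer domain of the RNA. POP7, at chr25:36421451-36430757, had 25.3 ± 6.60 CPM in CON and 27.5 ± 1.88 in MET, with a log2 fold change of 0.07 (interval -0.28 to 0.41). The CON range of 15.6 to 30.8 CPM contained all MET samples, and CON replicate 3 was its lowest value. The sign was not stable, since the value was -0.05 without that library. RPP25, at chr21:34144103-34150379, was the one subunit with a negative value, -0.42 (SE 0.32, interval -1.11 to 0.26, FDR 0.478). It had 4 to 19 reads per library, and its CON samples, 1.36 ± 0.692 CPM, lay on both sides of the MET samples, 1.09 ± 0.0570 CPM. The paralog RPP25L, which shares the Alba fold, was read far more often. It had 11.9 ± 1.23 RPKM over the 10 samples, beside 0.350 ± 0.139 for RPP25, and a log2 fold change of 0.10 (interval -0.11 to 0.32, FDR 0.595).

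**Figure D2:**
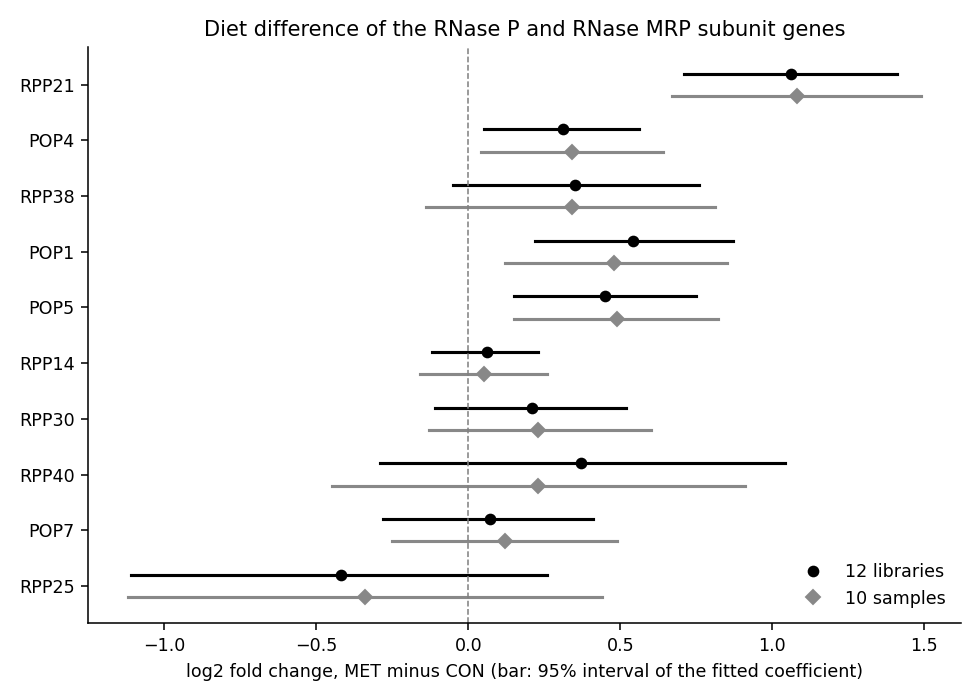
Log2 fold change of each subunit gene, MET minus CON, with the 95% interval of the fitted coefficient. Black circles are the fit over the 12 libraries and grey diamonds that over the 10 samples; the intervals of RPP21, POP4, POP1 and POP5 stay above 0 in both, and RPP21 is farthest from 0 at 1.06 and 1.08.

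The libraries were made from polyadenylated RNA. RMRP, the catalytic RNA of RNase MRP, had 0 to 2 reads per library and 5 in all, too few to compare the diets, and RPPH1, the RNA of RNase P, was not analysed here.

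The samples with the highest and the lowest values were not the same for all subunits. Summed over the 10 genes, the samples held 74.0 ± 5.22 RPKM in CON (66.6 to 78.6) and 95.5 ± 8.33 in MET (87.4 to 106). The sum was neither tested nor corrected for gene length, and POP7, POP5 and RPP21, with the highest mean levels, weigh most in it. From CON to MET the mean of RPP21 went from 6.48 to 13.7 RPKM, that of POP5 from 17.6 to 24.8 and that of POP7 from 22.8 to 24.8. RPP21 made up 8.74 ± 1.45% of this sum in CON and 14.2 ± 2.60% in MET, the ranges being 6.86 to 10.6% and 11.9 to 18.6%. MET replicate 6 had the highest RPP21 and POP5 of its diet and the lowest RPP14 and RPP30. MET replicate 5 was highest for RPP14, RPP30 and RPP38. Among CON samples, replicate 6 was highest for RPP14, RPP30, RPP38 and POP1, and replicate 2 was lowest for RPP14, RPP40, POP1 and POP4. The ratio of RPP21 to another subunit kept the diets apart for RPP14 and POP5, 2 of the 9 possible partners. Its log2 ratio to RPP14, both per kilobase, ran from -0.17 to 0.70 in CON and from 0.95 to 1.94 in MET.

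The diet difference varied with gene length over the whole transcriptome, and most subunits are shorter than the median gene. Across the 13212 genes, which are not independent replicates, the log2 fold change fell with exonic length (Pearson's r = -0.264, Spearman's rho = -0.312). Genes under 1 kb had a median log2 fold change of 0.201 and those over 4 kb one of -0.116. Of the subunits, POP5 was under 1 kb, 6 were between 1 and 2 kb, where the median of all genes was 0.096, POP1 and RPP25 were between 2 and 4 kb, where it was -0.003, and RPP14 was over 4 kb. Relative to the mean library, the slope of log2 CPM on log2 length ran from -0.029 to 0.094 over the CON libraries and from -0.116 to 0.002 over the MET libraries, and it was lowest in MET replicate 6. With the length trend of each library taken out, the fit over the 12 libraries gave RPP21 a log2 fold change of 0.97 (FDR 0.0289) and POP1 one of 0.58 (FDR 0.0906). POP5 moved from 0.45 to 0.30 (FDR 0.221), RPP14 moved from 0.06 to 0.19, and POP7 changed sign to -0.04. The median of the 10 subunits was then 0.29, with that of all genes at 0.02. At an unadjusted p of at most 0.05, 5 of the 10 were then higher in MET (RPP21, POP1, POP4, POP5 and RPP14), beside 9.62% of all genes. Over the 10 samples with this correction, 0 subunits and 0 of all genes reached an FDR of 0.10 by the quasi-likelihood test. RPP21 was then at 0.99 (FDR 0.162), POP1 at 0.53 (FDR 0.237) and RPP14 at 0.18 (unadjusted p 0.0896).

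**Figure D3:**
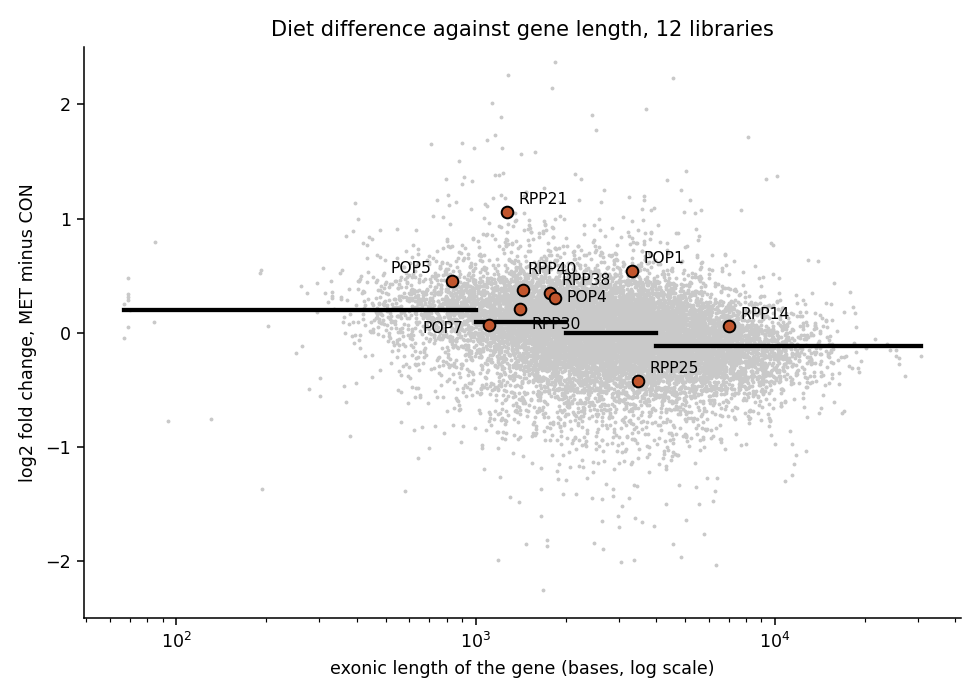
Log2 fold change over the 12 libraries (MET minus CON) against exonic length in bases on a log axis. Grey points are all tested genes but 5 outside the plotted range, black bars the medians of genes under 1, 1 to 2, 2 to 4 and over 4 kb (0.201, 0.096, -0.003 and -0.116), and coloured circles the 10 subunits; RPP21 and POP1 lie far above the bar of their length class.

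Other genes that process tRNA and ribosomal RNA precursors were counted from fixed lists. Mitochondrial RNase P is a separate enzyme made of protein alone, and its 3 subunits had a median log2 fold change of 0.12, from 0.05 for PRORP, the nuclease, to 0.21 for HSD17B10, the dehydrogenase subunit, with 0 of 3 at an FDR of 0.10. The 5 genes acting on tRNA ends were all positive, as were 49.6% of all genes, with a median of 0.27. At an unadjusted p of at most 0.05, 3 of them were higher in MET, beside 10.2% of all genes, and 0 of 5 passed the FDR. They ran from 0.02 for SSB, the La protein that binds the 3′ end of new RNA polymerase III transcripts, to 0.34 for ELAC2, which cuts off the 3′ trailer of tRNAs (39.2 ± 6.81 CPM in CON, 49.4 ± 7.50 in MET, FDR 0.143). Of the 11 tested genes of tRNA splicing, 6 were positive and 5 negative, with a median of 0.07 and 0 of 11 called. TRPT1, the phosphotransferase that clears the splice junction phosphate, had the largest value (0.44, FDR 0.149) and TSEN15, a subunit of the splicing endonuclease, the smallest (-0.14, FDR 0.412).

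The 24 tested genes of pre-rRNA cleavage and trimming had a median log2 fold change of 0.13, with 15 positive and 9 negative. PES1, a factor of the complex that prepares the large ribosomal subunit, was the 1 gene of the 24 called, with 4.41% of all genes called, at 50.2 ± 10.4 CPM in CON and 72.5 ± 13.4 in MET, with 4 of 5 MET samples above every CON sample. Its log2 fold change was 0.52 (SE 0.15, FDR 0.0905), and it missed the threshold over the 10 samples (FDR 0.187) and with the length correction (FDR 0.119). PES1 is also among the study's differentially expressed genes from these same libraries, so its call is not independent evidence. At an unadjusted p of at most 0.05, 8 of the 24 were higher in MET and 0 lower, where 10.2% of all genes were higher. With the length correction 4 of the 24 were higher at that level (PES1, BOP1, EXOSC1 and EXOSC3) and 0 lower, beside 9.62% of all genes. NOL9, a polynucleotide kinase that works on the second internal spacer, had the smallest value (-0.43, interval -0.88 to 0.01, FDR 0.251).

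**Figure D4:**
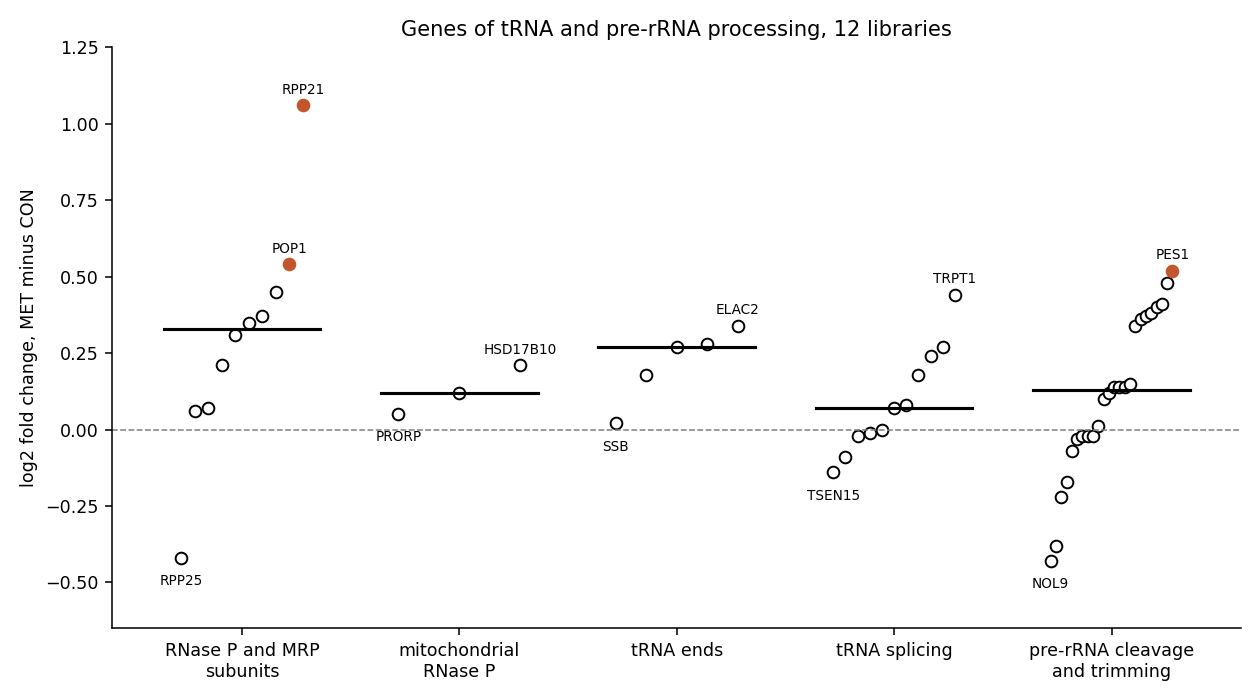
Log2 fold change over the 12 libraries (MET minus CON) of the subunit genes and of 4 other lists of RNA-processing genes. Each circle is 1 gene, filled at an FDR of 0.10 or less (RPP21, POP1 and PES1), and the bars are the list medians of 0.33, 0.12, 0.27, 0.07 and 0.13.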

How the data were processed

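The authors trimmed single-end reads of stranded, poly-A selected libraries, used STAR 2.5.3a for alignment to UMD 3.1.1, a bovine genome assembly, and counted them per gene with featureCounts (Subread 1.5.2), leaving out reads that matched several places or genes. They deposited raw counts per Entrez gene for each of the 12 libraries, which were mapped to diet by their labels. Symbols came from a RefSeq gene table of a later assembly, and coordinates and exonic lengths from the deposited files.

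Counts were normalised by TMM and tested with edgeR 4.0.16 in R 4.3.3 (default filter, which asks for 10 counts in enough libraries and 15 in total, quasi-likelihood F test, diet as the sole term, robust estimation off), with Benjamini-Hochberg adjustment (FDR) across the 13212 genes. The SE of a fitted coefficient was its absolute value divided by the square root of the F statistic, and the 95% intervals used that SE with a t quantile. CPM and RPKM use TMM library sizes, and reads of near-identical pairs were summed for the fit over 10 samples. Exact two-sided permutation tests used log2 CPM with a prior count of 2. Nothing in the labels pairs CON and MET calves. A floor of 3 reads equals 0.277 to 0.377 CPM and covers counting error only. The scripts were tested on simulated data.

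The members, gene lists and tests were chosen with earlier results of these data known. All 10 members are named, with RPP25L as a paralog, and of each pathway list the genes at an FDR of at most 0.10, or else those with the largest and smallest fold change. NOL9, BOP1, EXOSC1, EXOSC3, HTD2, RMRP and the neighbouring genes were named after their values or positions were seen. DESeq2 1.42.0, limma 3.58.1, other scalings and filters, a length correction (a loess trend with a span of 0.5 per library), a replicate block and leaving out each library were the alternatives.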

Additional observations from a re-analysis of the deposited data

Results flagged for a closer look

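RPP38 in CON replicate 6, at 8.09 CPM, stood apart from the other 4 CON samples, which lay between 3.96 and 4.69 CPM. Its gap to the nearest of them was 0.824 of the whole CON range, past the 95% critical value of Dixon's test for 5 samples. It was the 1 such case in the 20 groups of samples examined (10 genes in each diet), and that test flags about 1 group in 20 when no sample stands apart. The cause was not tested.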

How the results depend on the processing

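The count of called subunits, 2 over the 12 libraries, was 1 with library-size scaling, 1 without the filter on low counts, 3 with DESeq2, and 0 over the 10 samples with or without the length correction. Among alternatives chosen after seeing the data, it was 1 with DESeq2 and 0 with limma voom over the 10 samples, and 0 when CON 1 and MET 1, or CON 4 and MET 3, were kept of the pairs. Leaving out 1 library gave 3 without CON replicate 6 and 1 without any other. The count over all genes, 583, was 107 with library-size scaling, 238 without the filter, 1314 with DESeq2, 245 with the length correction and 0 over the 10 samples, also with the length correction, with voom or with 1 library kept of each pair, but 624 over the 10 samples with DESeq2; leaving out 1 library gave 26 (without CON replicate 1) to 564 (without CON replicate 2), and it fell by over 1.5 times in all but the fits without CON replicate 2 or 5. With the replicate number as a block, 0 subunits and 6 genes were called, RPP21 at 1.05 (FDR 0.143) and POP1 at 0.56 (FDR 0.169). Same-numbered calves showed little shared deviation (r from -0.19 to 0.148, above 0.1 for 1 of 6 numbers, and 0 of 6 CON libraries correlated best with their own number). Whether the numbers share a smaller effect was not tested. RPP21 kept its direction throughout, at 0.92 to 1.14 and an FDR of 0.0299 to 0.0902 in the 12 fits that left out 1 library, and at 0.97 to 1.10 with 10 of 16 other alternatives calling it. Each fit without 1 library still counted at least 1 near-identical pair as separate calves. With both pairs summed or reduced to 1 library, the FDR of RPP21 was 0.153 to 0.162 with edgeR and limma voom, and 0.000766 with DESeq2. POP1 ran from 0.47 to 0.63. POP7 reversed to -0.04 under the length correction and ran from -0.05 to 0.14 when 1 library was left out. The cause of these changes was not tested. The scalings moved the median of all genes by at most 0.034 (library size). RPP25 and RPP40 had 4 to 40 reads per library, and how far depth set their spread was not tested.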

Other observations

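Some subunit genes have close neighbours on the chromosome, chosen here after their positions and values were seen. POP1 and RIDA, a deaminase that clears reactive enamine intermediates of amino acid metabolism, lie on opposite strands with starts 118 bases apart. RIDA held 72.9 ± 8.46 CPM in CON and 96.6 ± 15.9 in MET (SD, n = 5 per diet), with 4 of 5 MET samples above every CON sample. Its log2 fold change was 0.40 (SE 0.12) with an FDR of 0.0941 by edgeR's quasi-likelihood test over the 12 libraries, 0.207 over the 10 samples and 0.255 with the length correction. RIDA is also among the study's differentially expressed genes from these same libraries, so its call is not independent evidence. The counting used strand, and the exons of POP1 and RIDA do not overlap.

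The other close neighbours did not pass the threshold. TRIM39, on the same strand as RPP21 with 1037 bases between them, had a log2 fold change of 0.13 (interval -0.14 to 0.39, FDR 0.592). GIGYF1, which starts 293 bases from POP7 on the opposite strand, had one of -0.20 (interval -0.49 to 0.10, FDR 0.436).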
